A study of Mus musculus with 6 samples.

Results

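The globin genes of the mouse were described across 6 Affymetrix Mouse Genome 430 2.0 arrays. The 7 genes were the embryonic Hbb-bh1, Hbb-y and Hba-x and the adult Hba-a1, Hba-a2, Hbb-b1 and Hbb-b2, chosen by name. Earlier results of these data were known when the genes were chosen. The array annotation assigned 15 of 45037 probe sets to them, leaving aside 64 control probe sets. Of these, 11 named 1 gene and 4 were shared: 3 by Hba-a1 and Hba-a2, and 1 by Hbb-b1, Hbb-b2 and the related Hbb-bs and Hbb-bt. Each gene is represented by whichever of its probe sets had the highest mean level (6 arrays). Hba-a1 and Hba-a2 therefore share 1 value, as do Hbb-b1 and Hbb-b2, which leaves 5 distinct values for the 7 genes.

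The samples were Flk1-positive cells isolated from embryoid bodies at day 4, after withdrawal of leukaemia inhibitory factor. They were grown from Ldb1-/- embryonic stem (ES) cells (3 biological replicates) and from Ldb1+/+ ES cells (3 biological replicates). The labels do not say whether each genotype was 1 clone, so clone and genotype cannot be told apart. The study treats these cells as a culture counterpart of the haemangioblast, a mesodermal precursor of blood and endothelium, and asks what LDB1 does in it.

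Haemoglobin is built from alpha-type and beta-type chains, whose genes lie in separate clusters on chromosomes 11 and 7. In the mouse, Hba-x (zeta), Hbb-y (epsilon y) and Hbb-bh1 (beta H1) serve the primitive red cells of the yolk sac, where beta H1 is the beta-type gene used first. The Hbb-b1 and Hbb-b2 genes serve definitive red cells, and the Hba-a genes serve both kinds. The adaptor LDB1 joins GATA1, TAL1 and LMO2 at enhancers. At the beta cluster it helps to bring the distant locus control region to a globin promoter.

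The arrays had close medians, from 5.73 to 5.74 in Ldb1-/- and from 5.71 to 5.77 in Ldb1+/+ cells on the log2 scale. The Ldb1+/+ replicate 3 had a narrower distribution, with quartiles of 4.37 and 7.92. On the other arrays the lower quartile ran from 4.22 to 4.28 and the upper from 8.15 to 8.27. Both arrays of number 3 stood apart in a control for 18S ribosomal RNA. It read 12.1 in the Ldb1-/- and 11.9 in the Ldb1+/+ array of that number, against 8.51 to 9.39 on the other 4 arrays. A control for the start of the Gapdh transcript also set number 3 apart. That control read 12.9 on both of its arrays, against 10.2 to 11.1 on the other 4. The deposited values carry no detection calls. The 44 probe sets of olfactory receptor genes, which are not expected in these cells, served as a rough guide to background. Their means had a 95th percentile of 5.34 and a median of 4.04. Array by array, the 95th percentile was 5.64 in the Ldb1+/+ replicate 3 and 5.15 to 5.35 elsewhere. Probe sets differ in how well they bind, so the 95th percentile of the means marks a zone and no sharp limit.

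Ldb1 itself read 7.25, 6.60 and 8.25 in Ldb1-/- cells, against 7.78, 7.31 and 8.31 in Ldb1+/+ cells (replicates 1, 2 and 3). The groups overlapped. The difference of −0.43 (SE 0.45) did not pass limma's test (adjusted p = 1.00), and it was −0.05 without the Ldb1-/- replicate 2 and −0.88 without the Ldb1-/- replicate 3. Which stretch of Ldb1 is missing is not stated in the labels, and a probe set outside it would not check the genotype. Kdr, the gene of the sorting marker Flk1, read 12.19, 11.33 and 11.58 in Ldb1-/- and 12.44, 12.14 and 11.78 in Ldb1+/+ cells, a difference of −0.42 (SE 0.27; limma, adjusted p = 1.00). Its difference was −0.24 without the Ldb1-/- replicate 2 and −0.67 without the Ldb1-/- replicate 1.

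Upstream sequence was held for 4 of the 7 genes in RefSeq's GRCm38.p6 table. The 250 bases before the start of 2 embryonic and 2 adult genes are given, to set both kinds of gene side by side. Hbb-bs stands for the adult beta genes, as 1 of the genes that share their probe set. Hbb-bh1, Hbb-b1 and Hbb-b2 are named only. Capitals mark 3 kinds of match. The word bound by GATA factors was AGATAA, whose first letter could also be T and whose last could also be G. The E-box, bound by TAL1 with its partners, was CANNTG. The word bound by KLF factors such as KLF1 was CACCC. Both strands were searched.
Hbb-y: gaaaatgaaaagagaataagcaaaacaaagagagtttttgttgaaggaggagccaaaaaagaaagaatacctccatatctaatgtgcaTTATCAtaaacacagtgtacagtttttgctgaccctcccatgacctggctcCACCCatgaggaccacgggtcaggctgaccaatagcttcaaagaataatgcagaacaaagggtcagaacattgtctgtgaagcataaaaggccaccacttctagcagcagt
Hba-x: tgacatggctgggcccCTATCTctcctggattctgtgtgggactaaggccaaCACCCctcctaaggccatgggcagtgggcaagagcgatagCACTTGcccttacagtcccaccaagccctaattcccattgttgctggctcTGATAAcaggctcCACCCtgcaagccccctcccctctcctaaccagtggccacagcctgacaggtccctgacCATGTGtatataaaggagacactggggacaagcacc
Hba-a1: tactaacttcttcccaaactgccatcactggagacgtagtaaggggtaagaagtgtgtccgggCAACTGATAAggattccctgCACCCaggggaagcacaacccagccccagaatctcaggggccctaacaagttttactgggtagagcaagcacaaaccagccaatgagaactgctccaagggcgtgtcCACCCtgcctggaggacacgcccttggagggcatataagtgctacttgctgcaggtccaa
Hbb-bs: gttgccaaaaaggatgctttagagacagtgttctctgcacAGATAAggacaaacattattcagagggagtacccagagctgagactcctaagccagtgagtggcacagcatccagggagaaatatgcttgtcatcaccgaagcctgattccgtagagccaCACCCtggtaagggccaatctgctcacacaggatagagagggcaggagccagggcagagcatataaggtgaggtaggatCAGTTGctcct

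These windows lie at chr7:103853208-103853457 on the minus strand for Hbb-y, at chr11:32276350-32276599 on the plus strand for Hba-x, at chr11:32283422-32283671 on the plus strand for Hba-a1 and at chr7:103827929-103828178 on the minus strand for Hbb-bs. A GATA word occurred once in Hbb-y, Hba-a1 and Hbb-bs and at 2 places in Hba-x. In Hba-a1 the E-box and the GATA word overlap in a single run of letters. Hbb-y held 0 matches to CANNTG in this window, Hba-x held 2, and Hba-a1 and Hbb-bs held 1 each. CACCC occurred once in Hbb-y and Hbb-bs and at 2 places in Hba-x and Hba-a1. Among 32841 windows of the same length, 26.5% held a GATA word, 66.2% held CANNTG and 52.0% held CACCC, so each match alone is common. Each of the 4 printed windows holds a GATA word and CACCC, but not every globin window does. The window of Hbb-bt, which shares the adult beta probe set, held 0 GATA words, 2 matches to CANNTG and 3 to CACCC. The share of windows that hold both words was not counted, and any tie to the array readings was not tested.

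Hbb-bh1 was the globin gene that passed the test over all probe sets, and it fell in Ldb1-/- cells. Its selected probe set, 1437810_a_at, read 4.60, 5.37 and 4.86 in Ldb1-/- cells, against 8.63, 8.80 and 9.08 in Ldb1+/+ cells (replicates 1, 2 and 3). The groups lay far apart, and the Ldb1-/- values sat in the background zone or, for replicate 2, just above it. They ranked between the 32.0th and 44.9th percentiles of their arrays, and the Ldb1+/+ values between the 78.0th and 84.0th.

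The mean difference for this probe set was −3.89 (SE 0.23; 95% interval −4.44 to −3.34), or 14.9-fold lower in Ldb1-/- cells (interval 10.2 to 21.7). By replicate number it was −4.03, −3.43 and −4.22, so that each Ldb1-/- array lay below its numbered counterpart by a similar amount. It passed limma's test over all 45037 probe sets (adjusted p = 0.00790). Since the low readings lie in the background zone, where array signal flattens, the fold is one of signal.

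The call for Hbb-bh1 was less firm than its size. Adjusted p was 0.0696 without the Ldb1-/- replicate 3, and 0.0535, 0.0818 and 0.0552 without the Ldb1+/+ replicates 1, 2 and 3, while the difference stayed between −4.10 and −3.72 whichever single array was left out. Over 24 alternatives, adjusted p ran from 1.6e-05 to 0.304.

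The other probe sets of Hbb-bh1 read the same way. The probe set 1437990_x_at read 4.18, 4.50 and 4.89 in Ldb1-/- cells, against 8.37, 8.28 and 8.85 in Ldb1+/+ cells, a difference of −3.98 (SE 0.24; limma, adjusted p = 0.00790). A dimmer one, 1450736_a_at, read 3.42, 3.86 and 3.57 in Ldb1-/- cells, against 5.36, 5.83 and 5.71 in Ldb1+/+ cells. Its difference of −2.02 (SE 0.18) did not pass without the block (adjusted p = 0.0634) but did with the replicate number as a block (adjusted p = 0.00979). None of the 3 probe sets had overlapping groups, and 1450736_a_at sat in the background zone in the Ldb1-/- cells and a little above it in the Ldb1+/+ cells.

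**Figure D1:**
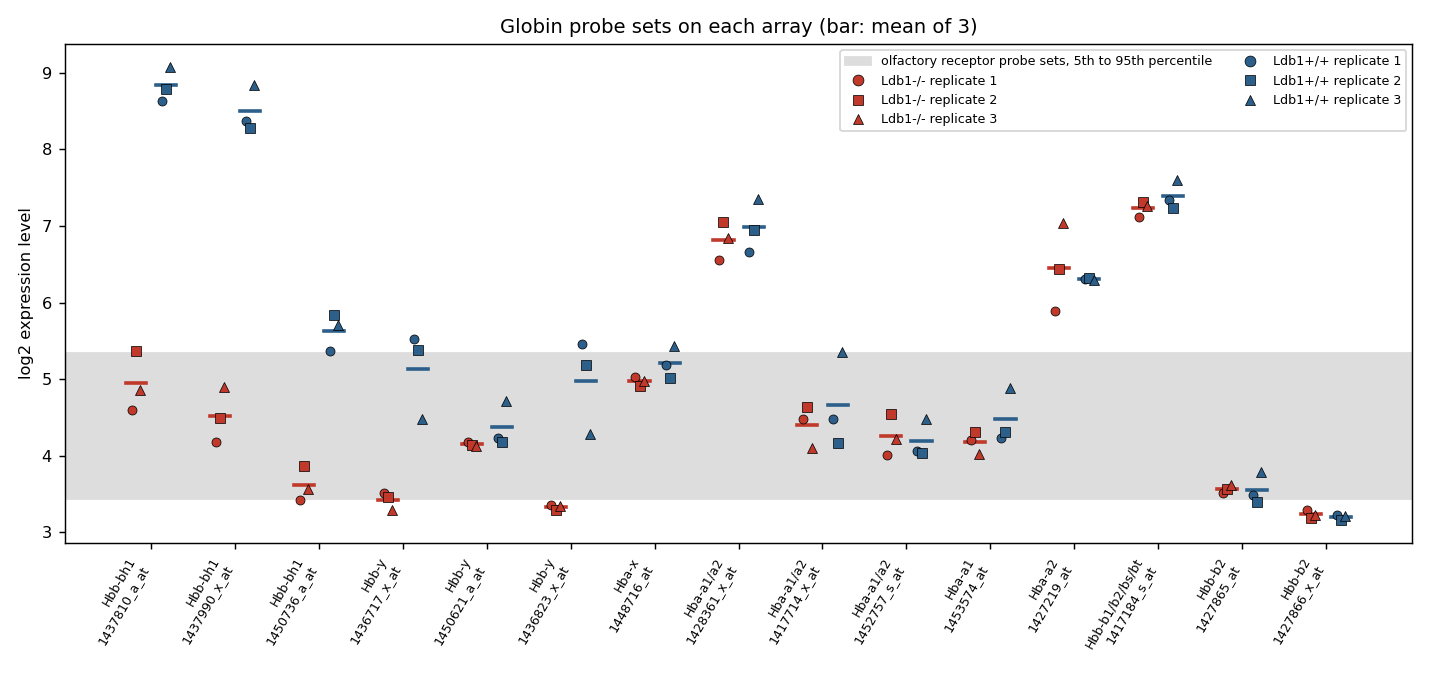
Log2 expression level of the 15 globin probe sets on each array, with Ldb1-/- arrays in red on the left of each pair and Ldb1+/+ arrays in blue on the right. Markers give the replicate number, bars the mean of 3, and the grey zone the 5th to 95th percentile of olfactory receptor probe sets. The Hbb-bh1 probe sets stand out, with 1437810_a_at at 4.60 to 5.37 in Ldb1-/- and 8.63 to 9.08 in Ldb1+/+ cells.

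Hbb-y, the other embryonic beta-type gene, was low on every array. Its selected probe set, 1436717_x_at, read 3.51, 3.46 and 3.29 in Ldb1-/- cells, against 5.52, 5.38 and 4.47 in Ldb1+/+ cells. The groups did not overlap, and the Ldb1+/+ replicate 3 was the closest to the Ldb1-/- arrays. The Ldb1-/- values ranked between the 2.87th and 6.23rd percentiles of their arrays and the Ldb1+/+ values between the 27.1st and 47.7th.

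The difference for this Hbb-y probe set was −1.71 (SE 0.28; 95% interval −2.39 to −1.03), with −2.01, −1.92 and −1.18 by replicate number. It did not pass limma's test over all probe sets (adjusted p = 0.514), nor with the replicate number as a block (adjusted p = 0.0687). With the block and 1 probe set per gene, so that 18192 features were adjusted for, it passed (adjusted p = 0.0250). With the block and without the number 3 arrays, the difference was −1.97 and passed over all probe sets (adjusted p = 0.000217). That fit called 780 probe sets over the whole array, against 25 with the block on all arrays. The same arrays without the block gave 0 calls over the whole array, and Hbb-y did not pass (limma, adjusted p = 0.175). Without the Ldb1+/+ replicate 3 alone the Hbb-y difference was −2.03.

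The probe sets of Hbb-y disagreed. The second, 1436823_x_at, read 3.36, 3.29 and 3.35 in Ldb1-/- cells, against 5.46, 5.19 and 4.28 in Ldb1+/+ cells, a difference of −1.65 (SE 0.30; limma, adjusted p = 0.642). The third, 1450621_a_at, read 4.18, 4.14 and 4.13 in Ldb1-/- cells, against 4.24, 4.18 and 4.71 in Ldb1+/+ cells, a difference of −0.23 (SE 0.17; adjusted p = 1.00). The ending _x_at marks probe sets in which some probes can also bind other transcripts, and the difference of over 1.5 rests on these. Whether other transcripts bound them was not tested. Among Ldb1+/+ arrays, replicate 3 was the lowest for both _x_at probe sets of Hbb-y and the highest for 1437810_a_at and 1437990_x_at of Hbb-bh1. The third probe sets read otherwise, since 1450621_a_at of Hbb-y was highest in replicate 3 and 1450736_a_at of Hbb-bh1 was highest in replicate 2.

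Hba-x, the embryonic alpha-type gene, had 1 probe set, 1448716_at. It read 5.03, 4.90 and 4.98 in Ldb1-/- cells, against 5.18, 5.01 and 5.44 in Ldb1+/+ cells. The groups overlapped, and only the Ldb1+/+ replicate 3 was above the background zone's upper end of 5.34. That reading lay under its own array's olfactory receptor 95th percentile of 5.64. The Ldb1+/+ replicate 1, at 5.18, lay just above its own of 5.16. The difference was −0.24 (SE 0.15; 95% interval −0.58 to 0.11; limma, adjusted p = 1.00). Over 1440 other genes of chromosome 11, where Hba-x lies, the median difference was −0.17, and 80.4% of them were lower in Ldb1-/- cells. With this chromosome median subtracted, the Hba-x difference was −0.07. For chromosome 7, where the beta-type genes lie, the median was −0.02 over 1410 genes.

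The adult alpha genes did not pass the test on any of their 5 probe sets. Their selected probe set, 1428361_x_at, is shared by Hba-a1 and Hba-a2 and read 6.56, 7.05 and 6.84 in Ldb1-/- cells, against 6.65, 6.95 and 7.35 in Ldb1+/+ cells. The groups overlapped, with a difference of −0.17 (SE 0.22; 95% interval −0.69 to 0.35; limma, adjusted p = 1.00). Its sign turned without the Ldb1+/+ replicate 3 (0.012). With the chromosome 11 median of −0.17 subtracted, the difference was −0.003.

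Of the probe sets with 1 gene, 1427219_at of Hba-a2 read 5.88, 6.44 and 7.04 in Ldb1-/- cells, against 6.31, 6.32 and 6.30 in Ldb1+/+ cells. The Ldb1-/- arrays lay on both sides of the Ldb1+/+ ones, and the difference was 0.14 (SE 0.28). The probe set 1453574_at of Hba-a1 read 4.20, 4.31 and 4.01 in Ldb1-/- cells, against 4.23, 4.31 and 4.89 in Ldb1+/+ cells, inside the background zone throughout. Both other shared probe sets also read there on average. The probe set 1417714_x_at differed by −0.26 (SE 0.32), with −0.01, 0.47 and −1.25 by replicate number, and 1452757_s_at by 0.06 (SE 0.20).

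The adult beta genes likewise did not pass. The shared probe set 1417184_s_at, which is the only one for Hbb-b1 and the selected one for Hbb-b2, read 7.12, 7.31 and 7.27 in Ldb1-/- cells, against 7.33, 7.23 and 7.60 in Ldb1+/+ cells. The groups overlapped, with a difference of −0.16 (SE 0.14; 95% interval −0.50 to 0.18; limma, adjusted p = 1.00). The probe sets 1427865_at and 1427866_x_at name Hbb-b2 alone. They averaged 3.56 and 3.23 in Ldb1-/- cells and 3.55 and 3.20 in Ldb1+/+ cells, near the lower end of the background zone, and differed by 0.01 and 0.04. All 8 adult probe sets together ran from −0.30 to 0.14, and their 95% intervals from −1.03 to 0.82.

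**Figure D2:**
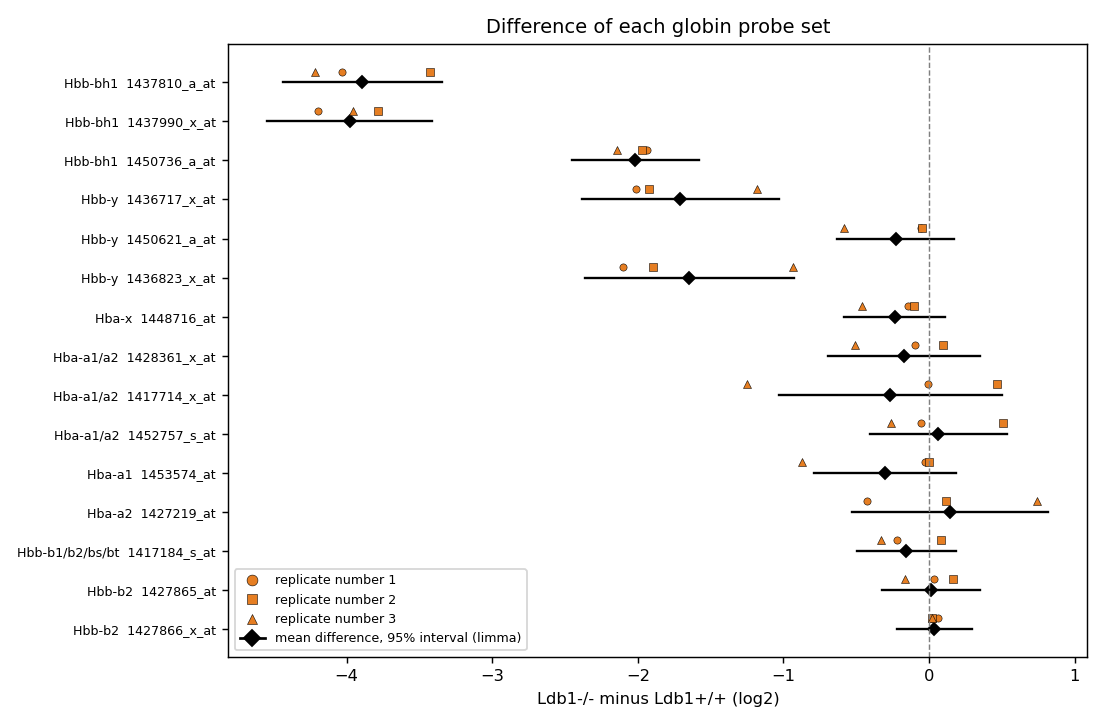
Difference of each globin probe set, Ldb1-/- minus Ldb1+/+, on the log2 scale. Diamonds and lines give limma's mean difference with its 95% interval, and orange markers the difference within each replicate number. The Hbb-bh1 probe sets lie at −3.89, −3.98 and −2.02, and every interval of the adult genes crosses 0.

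Taking the 15 globin probe sets as a group, 2 were called lower and 0 higher in Ldb1-/- cells, where 0.0222% of all probe sets were called lower and 0 were called higher. Both belong to Hbb-bh1. Since the genes were chosen with earlier results known, the counts set beside array-wide shares here are a description and no test. Unadjusted p was under 0.05 for 3.13% of all probe sets in either direction, or 7.59% with the block. With the replicate number as a block, 3 globin probe sets were called lower and 0 higher, again all of Hbb-bh1, where 0.0444% of all probe sets were called lower and 0.0111% higher. The groups did not overlap, with Ldb1-/- lower, for 6 of the 15, namely the 3 of Hbb-bh1 and the 3 of Hbb-y, against 3.49% of all probe sets. For 1450621_a_at of Hbb-y the groups were barely apart, at 4.18 for the nearest arrays of both. The median difference was −0.24 over the 15 and 0.01 over all probe sets. All 7 embryonic probe sets were lower in the Ldb1-/- array of all 3 replicate numbers, as was 1 of the 8 adult ones, against 11.7% of all probe sets.

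**Figure D3:**
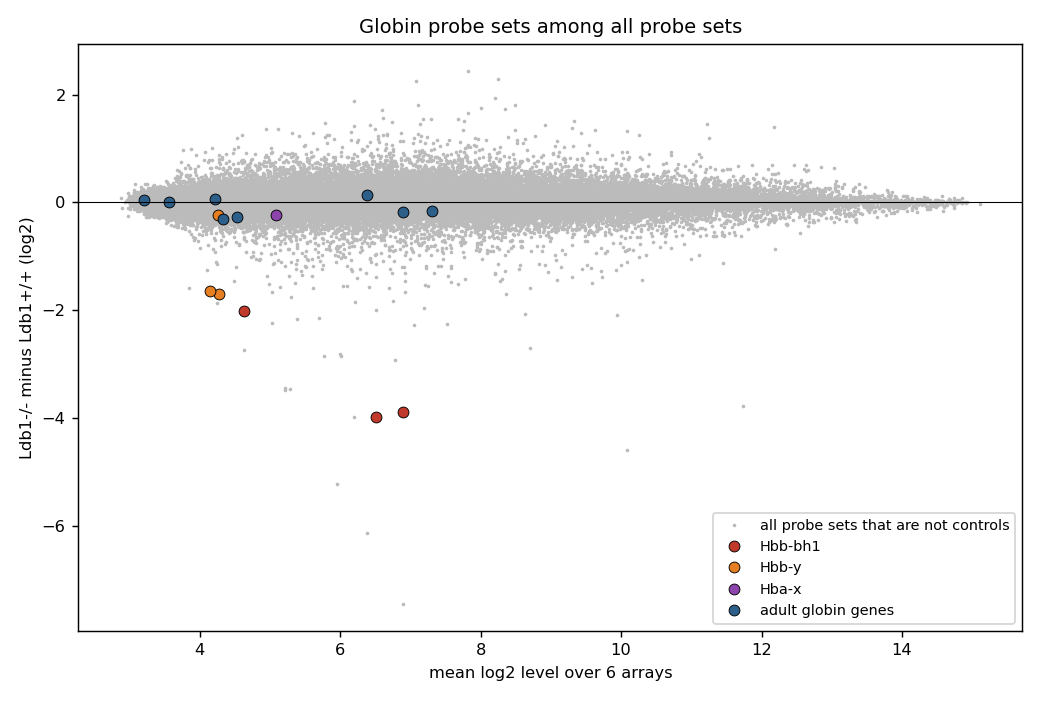
Mean log2 level over the 6 arrays (x axis) against the difference Ldb1-/- minus Ldb1+/+ on the log2 scale (y axis) for all 45037 probe sets in grey, with globin probe sets in colour. Hbb-bh1 at −3.89 and −3.98 lies among the few strongly negative probe sets, whereas the adult globin genes, between −0.30 and 0.14, lie within the main cloud.

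The gap between the selected probe set of Hbb-bh1 and each of the others was also taken on every array. Hbb-bh1 was set against the others with its own difference known, so these gaps largely restate it. The gap to Hba-x was −0.03 ± 0.45 in Ldb1-/- and 3.63 ± 0.17 in Ldb1+/+ cells (SD, n = 3 each), a change of −3.66. The corresponding change was −2.18 for the gap to Hbb-y, −3.72 for that to the shared Hba-a probe set and −3.74 for that to the shared Hbb-b probe set. Each of the 4 changes reached p = 0.1 in an exact two-sided permutation test, before and after adjustment over the 4, which is the smallest p that 3 against 3 arrays allow. Within replicate numbers the change ran from −3.04 to −1.50 against Hbb-y, and from −3.93 to −3.32 against the others. The Hba-x and Hbb-y probe sets read in or near the background zone, which leaves them little room to be lower, and a gap between probe sets gives no order of transcript amounts.

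The known regulators of the globin clusters gave 0 calls among 30 genes, all measured, in limma with or without the block. Unadjusted p was under 0.05 for 4 of them, where it was for 3.13% of all probe sets. In the blocked fit it was for 12 of the 30, where it was for 7.59% of all probe sets. Of the 30, 17 were lower in Ldb1-/- cells, where 53.7% of all genes were. Their median difference was −0.15, against −0.01 over all genes. This list too was chosen with earlier results known, so its counts beside array-wide shares are no test. The number of genes called lower over the whole array was 4 of 18192, or 0.022%, and 0.055% with the block, where 0.0165% were called higher. Without the number 3 arrays and with the block, 6 regulators were called lower and 2 higher, in a fit that called 780 probe sets over the whole array.

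Within that list Gata1 and Gfi1b had the lowest adjusted p. Gata1, which encodes the main erythroid activator and LDB1 partner, read 6.27, 6.37 and 6.17 in Ldb1-/- cells, against 7.50, 7.68 and 7.55 in Ldb1+/+ cells. Its groups lay well apart with little spread, and the difference of −1.31 missed the threshold narrowly (limma, adjusted p = 0.0634; 0.0502 with the block). Gfi1b, a repressor gene of red cell and platelet precursors, read 5.78, 6.22 and 5.71 in Ldb1-/- cells, against 7.56, 7.49 and 7.42 in Ldb1+/+ cells. Its difference was −1.58 (adjusted p = 0.115; 0.0502 with the block).

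Myb, a progenitor factor gene, differed by −2.92 (limma, adjusted p = 0.574; 0.0686 with the block) and Nfe2, whose product binds the beta locus control region, by −1.15 (adjusted p = 1.00; 0.0865 with the block). The LDB1 partner Tal1 averaged 10.25 ± 0.81 in Ldb1-/- and 10.24 ± 0.43 in Ldb1+/+ cells (SD, n = 3). Lmo2, another partner, averaged 11.87 ± 0.43 in Ldb1-/- and 11.24 ± 0.46 in Ldb1+/+ cells. Tcf12, which encodes an E protein that pairs with TAL1, averaged 11.60 ± 0.06 in Ldb1-/- and 11.44 ± 0.14 in Ldb1+/+ cells. Klf1, the erythroid CACCC-binding factor gene, averaged 5.63 ± 0.09 in Ldb1-/- and 5.92 ± 0.35 in Ldb1+/+ cells. None of these 4 passed (limma, adjusted p = 1.00 each).

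Genes that a haemoglobin-making cell also needs gave no calls. Of 19 haem synthesis and iron supply genes 18 were measured, with a median difference of −0.02 and 0 called in limma (unadjusted p under 0.05 for 2, and for 3 in the blocked fit). Alas2, the erythroid enzyme of the first step of haem synthesis, averaged 5.00 ± 0.29 in Ldb1-/- and 5.99 ± 0.30 in Ldb1+/+ cells (limma, adjusted p = 0.879), without overlap of the groups. Glrx5, of iron-sulphur cluster assembly, averaged 12.54 ± 0.19 in Ldb1-/- and 12.61 ± 0.09 in Ldb1+/+ cells. The transferrin receptor gene Tfrc averaged 12.34 ± 0.50 in Ldb1-/- and 12.22 ± 0.31 in Ldb1+/+ cells. Without the number 3 arrays and with the block, 1 gene of this list was called lower.

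Of 24 erythroid membrane, chaperone and enzyme genes 20 were measured, with a median of −0.06 and 0 called (unadjusted p under 0.05 for 2 in either fit). Means of 10 of the 20 were under the 95th percentile of the olfactory receptor probe sets. The carbonic anhydrase gene Car2 averaged 13.35 ± 0.39 in Ldb1-/- and 12.70 ± 0.21 in Ldb1+/+ cells, and Prdx2, which encodes a peroxide-removing enzyme, 13.90 ± 0.06 in Ldb1-/- and 13.67 ± 0.09 in Ldb1+/+ cells. Of 11 other globin family genes 4 were measured with a probe set of their own. Ngb (neuroglobin), Mb (myoglobin), Cygb and Adgb differed by −0.16, −0.09, 0.05 and −0.04.

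**Figure D4:**
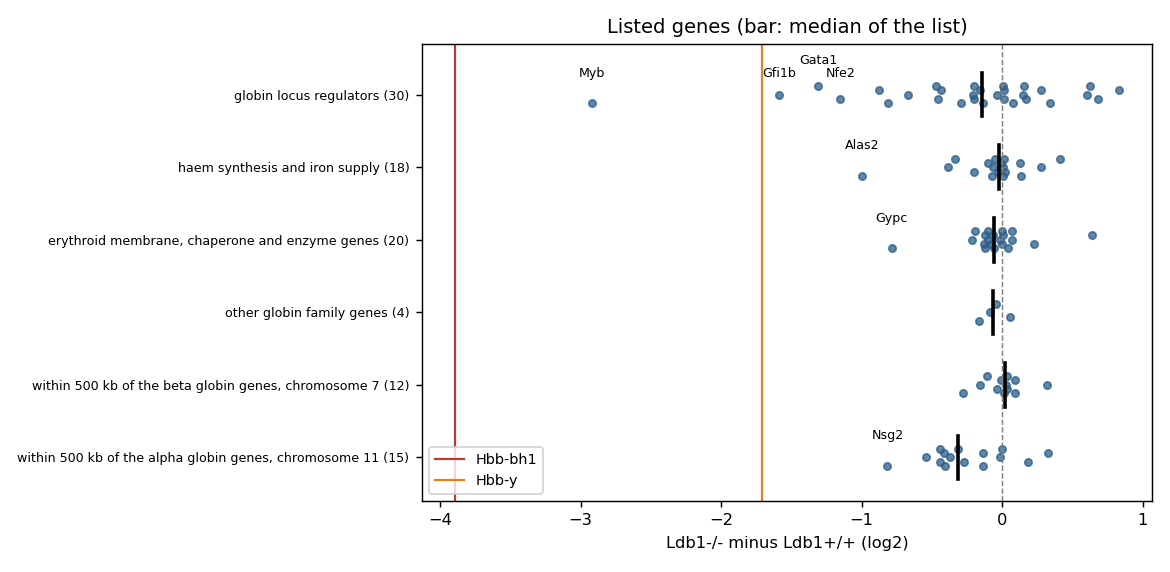
Difference Ldb1-/- minus Ldb1+/+ on the log2 scale for the measured genes of each list (points; number in parentheses) with the list's median (bar). Vertical lines mark Hbb-bh1 at −3.89 and Hbb-y at −1.71, and no listed gene lies as low as Hbb-bh1, Myb at −2.92 being the lowest.

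The neighbours of both clusters gave no calls, and the 2 groups of neighbours were not tested against each other. Within 500 kb of the beta-type genes 12 of 78 annotated genes were measured, mostly olfactory receptor and Trim genes. Means of 9 of the 12 were under the 95th percentile of the olfactory receptor probe sets. For the olfactory receptor genes among the 12 this comparison is circular. Olfr64, at 5.62, had the highest mean of the probe sets that set the percentile. Over the 12 genes the median difference was 0.02 and 0 were called in limma (unadjusted p under 0.05 for 0). Trim12c, with 9.01 ± 0.41 in Ldb1-/- and 9.17 ± 0.24 in Ldb1+/+ cells, and Trim6, with 8.78 ± 0.26 and 8.46 ± 0.45 in the same order, had the highest means.

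Within 500 kb of the alpha-type genes 15 of 30 annotated genes were measured, and 13 of them were lower in Ldb1-/- cells, where 80.4% of the chromosome 11 genes were. Their median was −0.31, below the chromosome 11 median of −0.17, and 0 were called in limma. Unadjusted p was under 0.05 for 4, where it was for 3.13% of all probe sets. In the blocked fit it was for 7, where it was for 7.59% of all probe sets. Nsg2 had the largest difference of these neighbours, −0.82 (limma, adjusted p = 0.982). It averaged 5.79 ± 0.10 in Ldb1-/- and 6.61 ± 0.32 in Ldb1+/+ cells. The DNA repair gene Mpg averaged 9.50 ± 0.04 in Ldb1-/- and 10.04 ± 0.16 in Ldb1+/+ cells, and the ubiquitin-domain gene Ubtd2 9.73 ± 0.19 in Ldb1-/- and 10.17 ± 0.12 in Ldb1+/+ cells. Nprl3, whose introns hold alpha globin enhancers, averaged 7.93 ± 0.51 in Ldb1-/- and 8.30 ± 0.45 in Ldb1+/+ cells. Snrnp25, of a small spliceosome, differed by −0.41, and Fbxw11, of a ubiquitin ligase, by −0.27.

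The genes whose levels followed Hbb-bh1 most closely over the 6 arrays were Mest, Gata1, Hmgn3, Eif2s3y and Gfi1b, with Pearson's r between 0.987 and 0.992. They came from 3580 candidates that varied by at least 1 on the log2 scale. With 3 arrays on either side, such values mostly restate the gap between the genotypes and are given without p. Mest, an imprinted gene, read 7.60, 7.84 and 7.94 in Ldb1-/- cells, against 12.22, 11.97 and 12.98 in Ldb1+/+ cells. The Y-linked Eif2s3y read 3.25, 3.09 and 3.18 in Ldb1-/- cells, against 10.43, 11.04 and 10.43 in Ldb1+/+ cells. Signal of a Y-linked gene, near background in the Ldb1-/- cells, thus moved with Hbb-bh1, and its part in the result was not tested. For Hbb-y the 5 closest genes were Plagl1, Kitl, Hmgcll1, Kcnj5 and Nsg2, with r between 0.986 and 0.996. For Hba-x they were Gm10658, Pla2g1b, Myh7b, Igfbpl1 and Lhx3, with r between 0.943 and 0.959.

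Markers of the cell kinds that the sort could hold were read beside these results. A mean log2 level was taken over each list on each array. For primitive erythroid cells 10 of 12 markers were measured. Their mean level ran from 4.73 to 4.95 in Ldb1-/- and from 5.23 to 5.30 in Ldb1+/+ arrays, without overlap. This was not particular to them, as the megakaryocyte, myeloid, cardiac and visceral endoderm lists below were also lower in Ldb1-/- arrays without overlap. The erythroid list's median difference was −0.12, with Gata1 at −1.31, Nfe2 at −1.15 and Alas2 at −0.99 the lowest members. Of the 10, Slc4a1, Epb42, Rhag, Car1 and Hemgn, which mark maturing red cells, were under the 95th percentile of the olfactory receptor probe sets. In such bulk samples, fewer cells of a kind and less RNA per cell cannot be told apart, and the part of these markers in the Hbb-bh1 result was not tested.

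All 12 haemangioblast markers were measured, at 7.71 to 9.08 in Ldb1-/- and 8.47 to 8.87 in Ldb1+/+ arrays, with Pecam1 alone in the background zone. Megakaryocyte markers (8 of 9 measured) lay at 5.09 to 5.36 in Ldb1-/- and 5.43 to 5.48 in Ldb1+/+ arrays. Myeloid markers (9 measured) lay at 5.06 to 5.23 in Ldb1-/- and 5.25 to 5.29 in Ldb1+/+ arrays. Cardiac mesoderm markers (11 of 11) lay at 8.32 to 8.67 in Ldb1-/- and 8.78 to 9.49 in Ldb1+/+ arrays. Visceral endoderm markers (10 of 10) lay at 5.46 to 5.75 in Ldb1-/- and 5.83 to 6.06 in Ldb1+/+ arrays. Pluripotency markers (8 of 8) lay at 8.59 to 9.18 in Ldb1-/- and 8.39 to 8.81 in Ldb1+/+ arrays. Under the 95th percentile of the olfactory receptor probe sets were 5 of the 8 megakaryocyte, 6 of the 9 myeloid and 4 of the 10 visceral endoderm markers. Median differences were −0.10, −0.14 and −0.16 for these 3 lists, −0.39 for the cardiac and 0.39 for the pluripotency list. By replicate number the cardiac median was −0.56, −0.35 and 0.09, and the visceral endoderm median −0.06, 0.02 and −0.51. The pluripotency median was 0.02, 0.06 and 1.11 in the same order, and so was far from 0 in number 3 only. For the haemangioblast list the median was −0.12, with 0.50, −0.19 and −0.64 by replicate number. No marker was called in limma without the block. With it, the cardiac factor gene Hand2 was called lower (difference −2.70; adjusted p = 0.00279), the only call of any list in that fit.

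**Figure D5:**
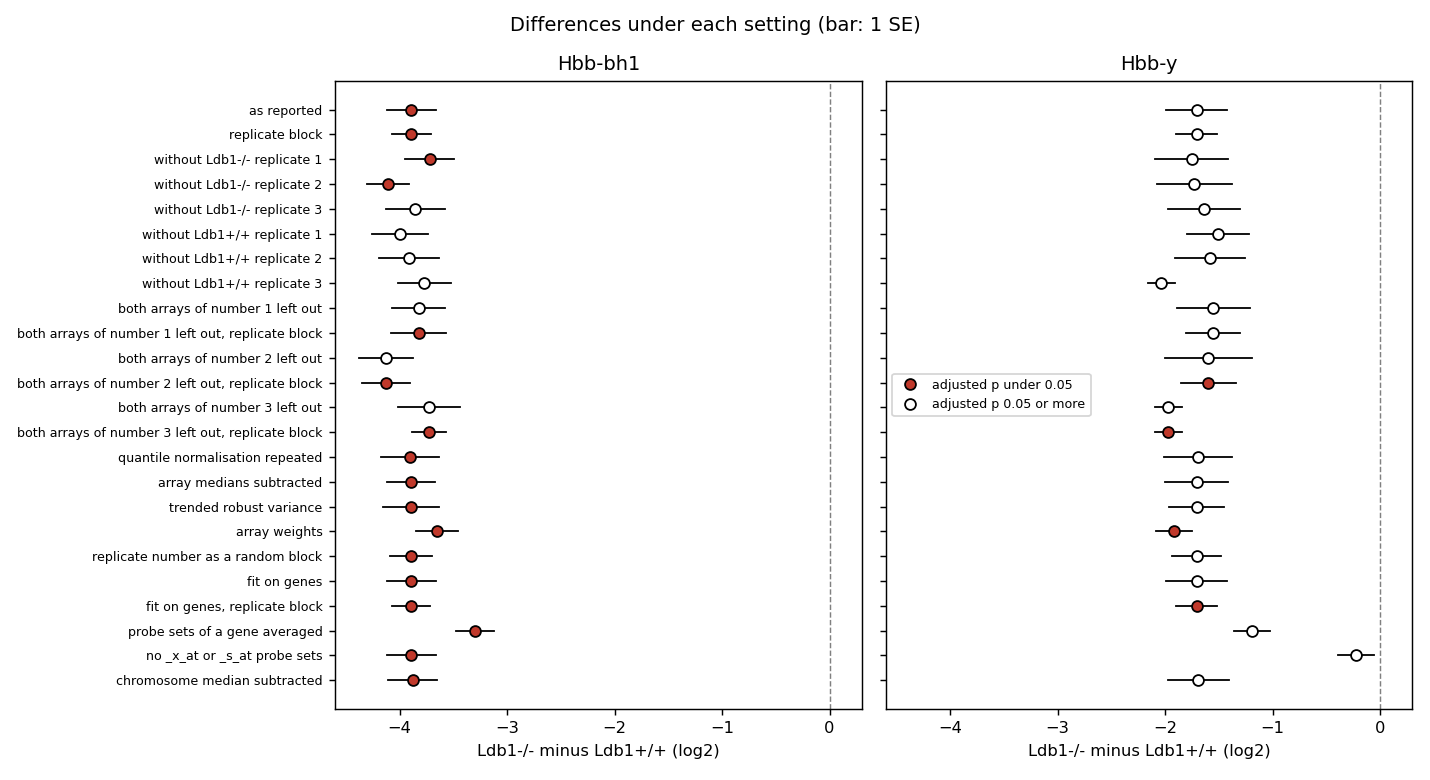
Difference Ldb1-/- minus Ldb1+/+ on the log2 scale, with 1 SE, for Hbb-bh1 (left) and Hbb-y (right) under each way of processing the data that gave both a value. Red points have an adjusted p under 0.05 and white points do not. Hbb-bh1 stays between −4.13 and −3.30, and Hbb-y is at −0.23 without _x_at and _s_at probe sets.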

How the data were processed

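RNA of 3 Ldb1-/- and 3 Ldb1+/+ samples was measured, 1 array each. The deposited values were log2 levels per probe set. Per the submitters' processing notes RMA and the affy package were used, and versions and settings are not given in the sources used here. RMA as usually run corrects background, sets arrays to a common distribution and summarises probes, which compresses differences near background. Probe sets were named by GEO's platform annotation, with symbols updated through GRCm38.p6 gene IDs: 34945 had 1 gene, 932 several and 9160 none.

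Genotypes were compared with limma 3.58.1 (lmFit, eBayes) in R 4.3.3 with jsonlite 2.0.0, over 45037 probe sets, with Benjamini-Hochberg adjustment over all of them and a threshold of 0.05. Fits with and without the block were also run on simulated data, built around the means of same-numbered arrays with the spread of the blocked fit. The simulated data thus differ from what the fit without the block assumes, and they are no check of its calls. All adjusted p-values come from the limma fit without the block unless another is named. The p-values measure the spread between samples labelled as biological replicates, and the number of arrays limits precision.

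The alternative fit added the replicate number as a block. Between same-numbered arrays, deviations from genotype means correlated at 0.698, 0.350 and 0.446 for numbers 1, 2 and 3. The numbers come from the sample titles, and no label says what same-numbered arrays share. The case for pairing them rests on these correlations.

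Members and lists were chosen with earlier results of these data known. Genes named were the members, Ldb1, Kdr, the 5 closest to each of 3 embryonic genes, and from each list up to 4 called genes and the 2 with the highest mean. Gata1 and Gfi1b were named by closeness, as was Nsg2, which is also given for its difference among the alpha neighbours. Myb, Nfe2, Tal1, Klf1, Alas2, Hand2, Gypc (in a figure only), Mpg, Ubtd2, Nprl3, Cygb and Adgb were chosen after their values were seen. Python 3.11.15 with matplotlib 3.10.9 drew the figures. Alternatives are under the closing section.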

Additional observations from a re-analysis of the deposited data

How the results depend on the processing

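Hbb-bh1 was lower in all 24 alternatives that gave it a value, its other probe sets aside, and passed in 17. It did not pass with both arrays of a number left out and no block (−3.82, −4.13 and −3.73 for numbers 1, 2 and 3). Nor did it pass on probe set 1450736_a_at without the block (−2.02). Leaving out single arrays gave −4.10 to −3.72, and Hbb-bh1 did not pass without the Ldb1-/- replicate 3 or without any 1 of the Ldb1+/+ replicates. Hbb-y was lower in all 23 and passed in 4: with the block without numbers 2 (−1.60) or 3 (−1.97), with array weights (−1.92), and with the block on genes (−1.71). Hba-x, the Hba-a and the Hbb-b values passed in none. The Hba-a sign turned with array weights (0.0029), on 1427219_at (0.14) and on 1452757_s_at (0.065), with or without the block, and single arrays left out gave −0.33 to 0.012. The Hbb-b sign turned on 1427865_at (0.012) and 1427866_x_at (0.037).

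Globin probe sets called lower numbered 0 without the arrays of any 1 number, 4 and 5 with the block without numbers 2 and 3, 5 with array weights, 1 without _x_at and _s_at probe sets, and 0 to 2 with single arrays left out. Over the whole array 10 were called, against 25 with the block, 21 with a random block, 38 with array weights and 4 to 8 with single arrays left out. Without numbers 1, 2 and 3 these were 2, 1 and 0, or 16, 118 and 780 with the block. In that last fit 6 regulators, 1 haem gene and 1 alpha cluster neighbour were called lower and 2 regulators higher. Among the marker lists it called 3 primitive erythroid, 4 cardiac, 1 megakaryocyte and 1 visceral endoderm gene lower, and 2 haemangioblast and 2 pluripotency genes higher. Dim probe sets left out removed Hbb-y and Hba-x, which then had no value. The blocked alternatives on other probe sets, the blocked fit on genes and the list counts without number 3 were chosen after seeing the data. The causes were not tested.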
